A study of Mus musculus with 10 samples.

Results

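Glycolysis breaks glucose down to pyruvate, and to lactate where lactate dehydrogenase takes the pyruvate on. Glucose enters the cell through transporters, is trapped by hexokinase, and is committed to the pathway by phosphofructokinase. The members described here were 10 mouse genes that run from uptake to lactate: the transporter Slc2a1, the hexokinases Hk1 and Hk2, the isomerase Gpi1, the phosphofructokinase subunits Pfkl and Pfkp, Tpi1, Pgk1, Pkm and Ldha. A gene was read from the probe sets annotated to it alone, and where there were several, from the brightest on average. In that way 9 of the 10 genes were measured, out of 14953 genes kept in all, and each of the 9 passed the filter on dim rows. Gpi1 was not analysed here.

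The arrays compare B220+ cells from pre-B colonies of 5 Hspa9+/- mice (heterozygous) with those of 5 Hspa9+/+ mice (wild type, labelled as littermates). Hspa9 encodes mortalin, an Hsp70-type chaperone of the mitochondrial matrix. Bone marrow of each mouse was grown by itself for 7 days in methylcellulose that lets B cell precursors form colonies, and B220+ cells were sorted from them. All groups share that culture and sort, and neither the kind of Hspa9 allele nor the age of the mice is known here. Dividing B cell precursors are known to take up glucose under control of IL-7 and the pre-B cell receptor, and the hypoxia factor HIF-1 and the factor MYC are known to switch on many of these genes.

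Hspa9 itself had a log2 value of 9.52, 8.92, 9.30, 9.21 and 8.97 in heterozygous arrays 1 to 5, against 9.49, 9.57, 10.36, 10.17 and 9.99 in wild type arrays 1 to 5. The groups overlapped only in that heterozygous 1 lay above wild type 1, and the difference of -0.73 (SE 0.185) had an exact permutation p of 0.0159 (two-sided, n = 5 each) and a limma adjusted p of 0.345 over all genes. Values throughout are the deposited RMA levels on the log2 scale, differences are heterozygous minus wild type, and a level of one gene is not set against that of another because probe sets differ in brightness. Of the B lineage list, Cd79a (11.56 to 11.78 in heterozygous and 11.65 to 12.13 in wild type arrays) was present in each array. So was Ptprc, which encodes B220 among other forms (7.89 to 9.76 in heterozygous and 9.35 to 10.07 in wild type arrays). The Ptprc value does not tell B220 from those other forms. Macrophage genes were not evenly spread: the mean of 15 monocyte and macrophage markers ran from 8.43 to 10.79 in heterozygous and from 6.54 to 10.45 in wild type arrays, highest in heterozygous 2 and wild type 1. That mean differed by 1.08 between genotypes. Of the 15 markers 14 had a positive difference, as did 61.3% of all genes. At an unadjusted limma p under 0.05, 0 of the 15 were higher, where 6.79% of all genes were.

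The promoters are shown first because HIF-1 and MYC act through short sequences that share the letters ACGTG. In the 250 bases before the annotated start (RefSeq, GRCm38.p6), read 5′ to 3′ on the strand of the gene, ACGTG on either strand was found in 5 of the 13 windows of the members, each of a different gene: Slc2a1, Hk2, Pgk1, Pkm (before the second of its starts) and Ldha. Among all 32851 promoter windows of the same length the share with ACGTG was 16.6%. The E-box CACGTG, which contains ACGTG and is read by MYC, was found in 1 of the 13 windows, that of Ldha, against 6.02% of all windows. GGGCGG, the Sp1 box, was found in 8 of the 13 windows, against 32.7% of all windows. Capitals mark ACGTG or its reverse complement in the windows of the members with this core before their first listed start.
Slc2a1: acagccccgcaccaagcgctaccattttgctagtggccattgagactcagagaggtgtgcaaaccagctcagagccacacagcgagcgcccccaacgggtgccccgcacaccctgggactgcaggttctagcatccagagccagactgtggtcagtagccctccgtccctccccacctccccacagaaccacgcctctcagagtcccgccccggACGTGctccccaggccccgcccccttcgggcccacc
Hk2: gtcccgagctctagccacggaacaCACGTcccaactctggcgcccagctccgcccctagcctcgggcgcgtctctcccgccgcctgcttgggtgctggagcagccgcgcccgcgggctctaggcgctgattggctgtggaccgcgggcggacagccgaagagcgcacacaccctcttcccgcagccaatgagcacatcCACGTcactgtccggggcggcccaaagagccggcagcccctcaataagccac
Pgk1: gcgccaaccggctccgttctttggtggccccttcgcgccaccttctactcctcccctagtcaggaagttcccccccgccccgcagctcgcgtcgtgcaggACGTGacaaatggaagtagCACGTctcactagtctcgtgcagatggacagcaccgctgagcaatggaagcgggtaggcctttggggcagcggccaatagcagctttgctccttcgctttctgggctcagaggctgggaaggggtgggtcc
Ldha: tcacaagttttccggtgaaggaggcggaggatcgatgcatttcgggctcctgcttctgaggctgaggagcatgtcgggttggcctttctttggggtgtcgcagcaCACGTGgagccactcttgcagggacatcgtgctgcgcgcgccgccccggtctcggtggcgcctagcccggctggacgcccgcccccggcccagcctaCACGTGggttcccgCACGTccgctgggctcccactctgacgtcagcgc
The Slc2a1 window is chr4:119108495-119108744 on the plus strand and holds the core once, with its first base 36 bases before the start. The Hk2 window is chr6:82774455-82774704 on the minus strand, with cores 226 and 52 bases before the start. The Pgk1 window is chrX:106186850-106187099 on the plus strand, with cores 150 and 131 bases before the start. The Ldha window is chr7:46845554-46845803 on the plus strand and holds 2 E-boxes, each counted on both strands, and 1 further core. A match of letters is a description of the sequence, and no binding was measured in these samples.

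The 8 measured members other than Hk1 had mean levels 1.19 to 1.54 fold higher in heterozygous cells, but no member passed the test over all genes. Of the 9 measured members 8 had a positive difference, as did 61.3% of all genes, and 1 had a negative one, as did 38.7% of all genes. The median difference of the members was 0.45, against 0.06 for all genes kept. With limma, 0 of the 9 had an adjusted p under 0.05, and 0 of all genes did (0% called). At an unadjusted p under 0.05, 7 of the 9 were higher and 0 lower, where 6.79% of all genes were higher and 4.25% lower. The mean of the 9 members was 9.44, 9.45, 9.29, 9.65 and 9.64 in heterozygous arrays 1 to 5, against 9.03, 9.19, 9.20, 9.21 and 8.89 in wild type arrays 1 to 5. Each heterozygous array thus had a higher mean than each wild type array (9.49 ± 0.150 and 9.10 ± 0.142, SD, n = 5 each). Gene by gene the genotypes overlapped in all 9, while 1.47% of all genes had every heterozygous array above every wild type array and 0.809% had every one below. In bulk samples, more cells of a type and more RNA per cell cannot be told apart, and this holds for every value below.

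**Figure D1:**
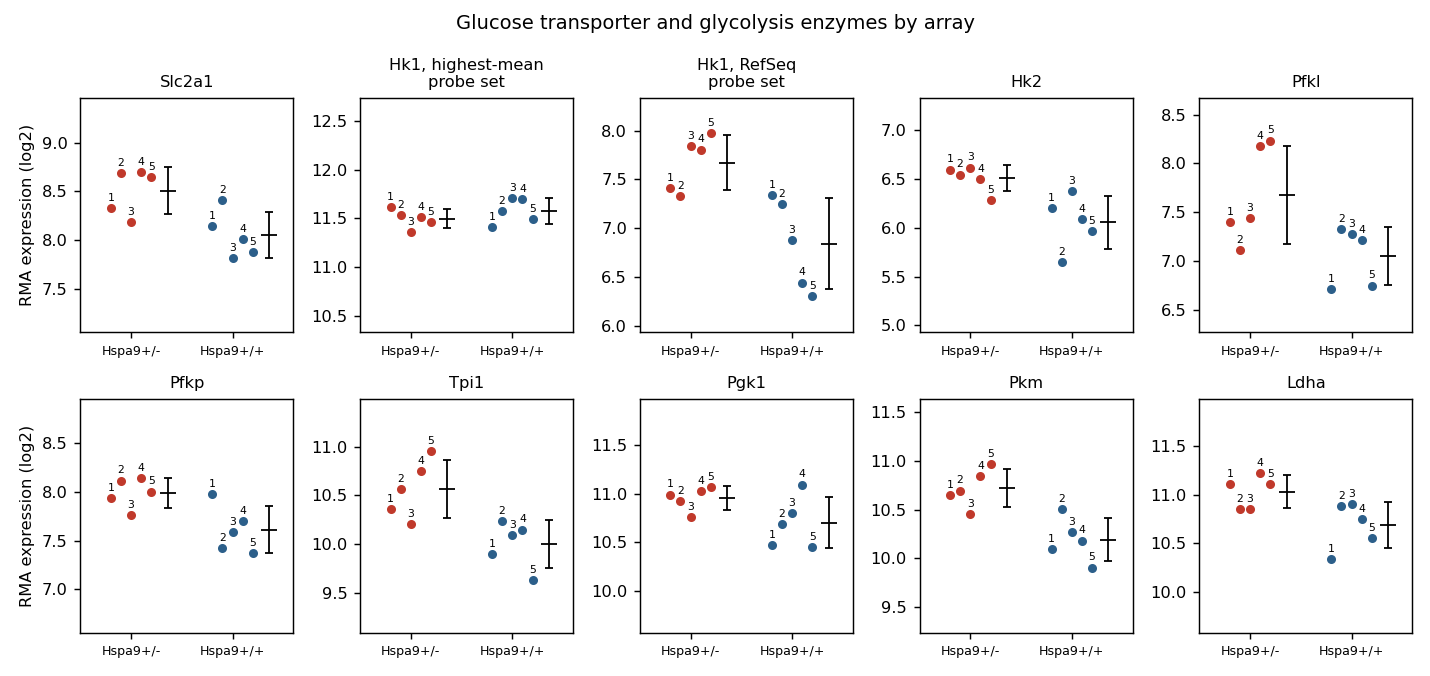
RMA expression (log2, each panel spans the same number of units) of the members in each array, with heterozygous arrays (red) left of wild type arrays (blue) and replicate numbers beside the points. Bars are mean and SD of 5 arrays; in Hk2, Pfkl, Tpi1 and Pkm, 4 of the 5 heterozygous arrays lie above all wild type arrays, and in the highest-mean Hk1 probe set none do.

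Glucose uptake and trapping come first in the path, and Slc2a1 and Hk2 showed differences of like size. Slc2a1, the transporter GLUT1 that supplies basal glucose to blood cells, was at 8.33, 8.68, 8.18, 8.70 and 8.65 in heterozygous arrays 1 to 5, against 8.14, 8.41, 7.82, 8.01 and 7.88 in wild type arrays 1 to 5. Heterozygous arrays 2, 4 and 5 were above all wild type arrays, and wild type 2 was the one wild type array inside the heterozygous range. The difference was 0.46 (SE 0.145), or 1.37 fold (95% interval 1.10 to 1.71), with a limma adjusted p of 0.349. Hk2, the inducible hexokinase that docks on mitochondria, was at 6.60, 6.55, 6.62, 6.50 and 6.28 in heterozygous arrays 1 to 5, against 6.20, 5.65, 6.37, 6.09 and 5.97 in wild type arrays 1 to 5. Only heterozygous 5 fell inside the wild type range, below wild type 3. Its difference was 0.45 (SE 0.136), or 1.37 fold (1.11 to 1.68), with a limma adjusted p of 0.349.

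Hk1, the constitutive hexokinase, gave 2 different answers from 2 probe sets. The probe set of highest mean, which the choice of members takes, was at 11.50 ± 0.0945 in heterozygous and 11.58 ± 0.131 in wild type arrays (SD, n = 5 each), a difference of -0.08 (SE 0.0935, limma adjusted p = 0.712). It is annotated through 1 database entry only, with no RefSeq transcript of Hk1. All 16 probe sets whose annotation names both the ribosomal protein gene Rpl17 and Hk1 share an entry with it, as they do with the other Hk1 probe set, which has 8 entries. Across the 10 arrays its correlation with those 16 probe sets had a median of 0.89 (0.67 to 0.94). The other Hk1 probe set, which carries the RefSeq transcripts, correlated with the same 16 at a median of -0.37 (-0.45 to -0.14). Such correlations are across arrays of both genotypes and are given as a description. Whether the first probe set measures Hk1 was not tested further, so the Hk1 value that the rule gives is uncertain.

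The Hk1 probe set with RefSeq transcripts was at 7.41, 7.33, 7.84, 7.81 and 7.97 in heterozygous arrays 1 to 5, against 7.34, 7.25, 6.88, 6.44 and 6.30 in wild type arrays 1 to 5. Heterozygous arrays 3, 4 and 5 stood well above all wild type arrays, and heterozygous 2 lay just below wild type 1. Its difference was 0.83 (SE 0.219), or 1.78 fold (95% interval 1.27 to 2.48), with an adjusted p of 0.343 in a limma fit that holds it in place of the first. This choice was made after the values were seen. With it, 8 of the 9 measured members were higher at an unadjusted p under 0.05. With array weights it passed (1.03, adjusted p = 0.0315), and without wild type 1 and heterozygous 2 it was at 1.04 (adjusted p = 0.0852). Across the 10 arrays it followed the mean of 7 T cell and NK cell markers (r = 0.95, and r = 0.91 within genotypes), which was 5.80 to 6.03 in heterozygous and 5.42 to 5.66 in wild type arrays. The other listed markers of these cells, Cd3d and Cd3g among them, were left out as dim. The part of such cells in the Hk1 value was not tested.

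**Figure D2:**
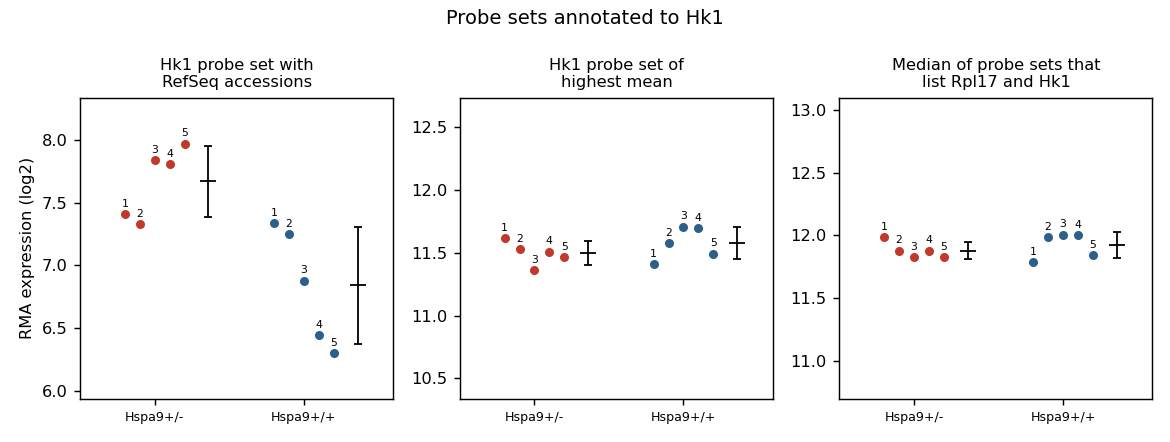
RMA expression (log2) in each array of the Hk1 probe set with RefSeq transcripts, the Hk1 probe set of highest mean, and the median over 16 probe sets that list both Rpl17 and Hk1; heterozygous arrays are red and left, wild type blue and right, numbers are replicates and bars are mean and SD of 5. The highest-mean set follows the shape of the third panel (means 11.88 heterozygous and 11.93 wild type), and the RefSeq set does not.

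Phosphofructokinase makes the committed step, and its subunits differ between tissues, with the liver type encoded by Pfkl and the platelet type by Pfkp. Pfkl was at 7.39, 7.11, 7.44, 8.18 and 8.23 in heterozygous arrays 1 to 5, against 6.71, 7.32, 7.27, 7.21 and 6.75 in wild type arrays 1 to 5. Heterozygous arrays 4 and 5 were far above the rest, and heterozygous 2 was inside the wild type range. The difference was 0.62 (SE 0.234), 1.54 fold (1.08 to 2.20), with a limma adjusted p of 0.400. Its unadjusted p was above 0.05 without any 1 of wild type 1 (0.53), wild type 5 (0.54), heterozygous 4 (0.49) or heterozygous 5 (0.48, the difference in each case). With plasmacytoid dendritic cell markers as a covariate the difference was 1.04. Pfkp was at 7.93, 8.11, 7.76, 8.14 and 8.0 in heterozygous arrays 1 to 5, against 7.97, 7.42, 7.58, 7.70 and 7.37 in wild type arrays 1 to 5. Here wild type 1, rich in macrophage transcripts, was the one wild type array inside the heterozygous range. The difference was 0.38 (SE 0.130), 1.30 fold (1.07 to 1.59), with a limma adjusted p of 0.364. The muscle type subunit gene Pfkm was at 0.22 (SE 0.152, adjusted p = 0.566).

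In the later steps of the path the enzymes are abundant in most dividing cells. Tpi1, which interconverts the triose phosphates, was at 10.36, 10.57, 10.20, 10.75 and 10.95 in heterozygous arrays 1 to 5, against 9.90, 10.24, 10.09, 10.15 and 9.63 in wild type arrays 1 to 5. Only heterozygous 3 came below a wild type array, wild type 2. The difference was 0.56 (SE 0.163), 1.48 fold (1.15 to 1.90), with a limma adjusted p of 0.349. Pkm, whose pyruvate kinase makes pyruvate and ATP, was at 10.65, 10.69, 10.45, 10.84 and 10.97 in heterozygous arrays 1 to 5, against 10.09, 10.50, 10.26, 10.18 and 9.90 in wild type arrays 1 to 5. Again only heterozygous 3 came below wild type 2. Its difference of 0.53 (SE 0.132), 1.45 fold (1.18 to 1.77), had the smallest p among the 9 measured members, rank 80 among the 14953 genes, with a limma adjusted p of 0.345. The chosen Pkm probe set carries no RefSeq transcript, and the second, which does, was at 10.62 ± 0.202 in heterozygous and 10.27 ± 0.196 in wild type arrays (SD, n = 5 each), a difference of 0.35 (SE 0.126) with an adjusted p of 0.410 in a limma fit of all probe sets with 1 symbol. Neither probe set tells the splice forms of Pkm apart.

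Pgk1 and Ldha had smaller differences than Tpi1 and Pkm. Pgk1, the first enzyme of the path to yield ATP, was at 10.99, 10.93, 10.76, 11.02 and 11.07 in heterozygous arrays 1 to 5, against 10.47, 10.69, 10.80, 11.09 and 10.45 in wild type arrays 1 to 5. Wild type 4 was the highest of all arrays, so no heterozygous array stood above all wild type arrays. Its difference was 0.25 (SE 0.131), 1.19 fold (0.976 to 1.46), with a limma adjusted p of 0.494. It was 0.13 with array weights, 0.39 with plasmacytoid dendritic cell markers as a covariate, and 0.32 with macrophage markers as a covariate or 0.35 without wild type 4, both with an unadjusted p under 0.05. The 3 probe sets of Pgk1 gave 0.25 each, and 2 of them held the same values in all 10 arrays. Pgk1 is X-linked, and with mouse sex as a covariate (1 male array per genotype by Y-linked probe sets) the difference was also 0.25. Ldha, which turns pyruvate to lactate and restores NAD+, was at 11.11, 10.85, 10.85, 11.22 and 11.11 in heterozygous arrays 1 to 5, against 10.34, 10.88, 10.91, 10.75 and 10.55 in wild type arrays 1 to 5. Heterozygous arrays 2 and 3 lay just below wild type 2 and 3, and wild type 1 was lowest. The difference was 0.34 (SE 0.132), 1.27 fold (1.04 to 1.55), with a limma adjusted p of 0.406. Its unadjusted p was above 0.05 without any 1 of wild type 1 (0.26), wild type 5 (0.31), heterozygous 1 (0.32) or heterozygous 4 (0.29, the difference in each case), and with quantile normalization (0.29) or the replicate number as a block (0.34). Genes of this path are known to have processed copies in the mouse genome, and what such copies add to their probe sets was not tested.

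**Figure D3:**
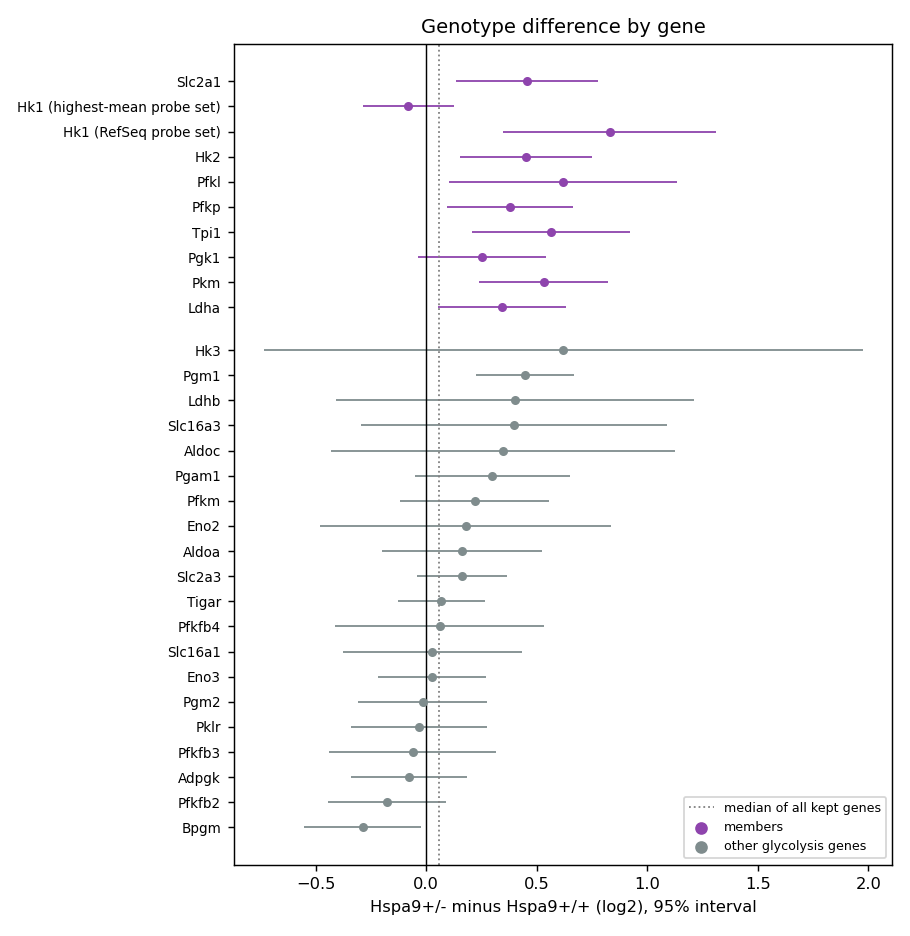
Difference between genotypes (heterozygous minus wild type, log2) with its 95% limma interval for the members in the order of the path (purple) and for the other glycolysis genes by size (grey); the dotted line is the median of all genes kept, 0.06. The intervals of 7 of the 9 measured members lie above 0, as does the RefSeq probe set of Hk1, while those of Pgk1 and the highest-mean Hk1 set cross it.

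The members did not all vary as one. Over the 28 pairs of the 8 measured members other than Hk1 the median correlation across the 10 arrays was 0.70 (0.27 to 0.97), and within genotypes it was 0.33 (-0.67 to 0.94). Tpi1 and Pkm were the closest pair, with r = 0.97 across arrays and 0.94 within genotypes. Within genotypes Hk2 had r from -0.67 with Slc2a1 to 0.33 with Pfkp among these members. Heterozygous 4 and 5 were the highest 2 arrays for Pfkl, Tpi1 and Pkm, and heterozygous 3 and 1 for Hk2. All these correlations describe 10 arrays that share one normalization. By the exact permutation test over 252 splits, Hk2 minus Hk1 differed between genotypes by 0.53 (p = 0.0079, the smallest possible, 0.0317 after adjustment over 4 pairs), but with the RefSeq probe set of Hk1 it was -0.38 (exact p = 0.222). Pfkp minus Pfkl (-0.24, exact p = 0.444), Ldha minus Ldhb (-0.06, exact p = 0.865) and Slc2a1 minus Slc2a3 (0.30, exact p = 0.0794) did not pass.

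Most like the mean of the members across the 10 arrays were Camk2a (r = 0.94), Lss of sterol synthesis (r = 0.93), the tubulin gene Tuba4a (r = 0.93), Zcchc14 (r = 0.92) and the translation helicase gene Eif4a1 (r = 0.92). Within genotypes these 5 had r of 0.79, 0.86, 0.84, 0.72 and 0.75, in the same order. They are the highest of all genes kept that are not members, so high values are a product of the search.

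Other genes of the pathway had differences in both directions. Of 25 further genes listed for uptake, enzymes, regulators and lactate export, 20 were kept, 0 passed over all genes, and at an unadjusted p under 0.05 1 was higher and 1 lower, with a median difference of 0.11. These counts are near the shares of all genes, 6.79% higher and 4.25% lower. Pgm1, a phosphoglucomutase that links glycogen to the path, was at 7.51, 7.35, 7.23, 7.54 and 7.42 in heterozygous arrays 1 to 5, against 7.09, 6.90, 7.05, 7.01 and 6.75 in wild type arrays 1 to 5. Its groups did not overlap, and the difference was 0.45 (SE 0.100), 1.36 fold, with a limma adjusted p of 0.300. Bpgm, which makes 2,3-bisphosphoglycerate in red cells, was the lower one at -0.29 (SE 0.121, adjusted p = 0.439).

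Among these 20 genes the widest intervals were those of Hk3, Ldhb, Aldoc, Slc16a3 and Eno2. Aldoa, the main aldolase, was at 0.16 and Pgam1, the phosphoglycerate mutase, at 0.30 (SE 0.159, adjusted p = 0.498). Hk3, a hexokinase of myeloid cells, was at 0.62 (SE 0.615), Ldhb at 0.40 (SE 0.367), the lactate exporter Slc16a3 at 0.40 (SE 0.314), Aldoc at 0.35 and Eno2 at 0.18. With macrophage markers as a covariate Hk3 was at -0.22, Ldhb at -0.08, Aldoc at -0.08, Eno2 at -0.21, Slc16a3 at 0.11, Pgam1 at 0.14 and Aldoa at 0.02. With plasmacytoid dendritic cell markers as a covariate Hk3 was at -0.78, Ldhb at -0.40, Aldoc at -0.28 and Eno2 at -0.49. Heterozygous 2 and wild type 1, the arrays highest in macrophage markers, were the highest 2 arrays for 7 of these 20 genes, among them Hk3 (8.31 in heterozygous 2 and 7.68 in wild type 1, with the others from 4.82 to 6.09) and for 0 of the 9 members. Even so, across the 10 arrays the macrophage mean had r = 0.63 with Slc2a1 and 0.60 with Pfkp (0.54 and 0.50 within genotypes). It had r = 0.58 with the RefSeq probe set of Hk1 (0.47 within genotypes). For the other members r ran from -0.52 (Hk1) to 0.38 (Pkm). With macrophage markers as a covariate Slc2a1 was at 0.36, Pfkp at 0.30 and Pfkl at 0.76. The glucose transporter Slc2a3 was at 0.16, the regulators Pfkfb2 at -0.18, Pfkfb3 at -0.06 and Pfkfb4 at 0.06 (-0.19 with the macrophage covariate), and Tigar, which lowers the activator of phosphofructokinase, at 0.07. Eno3 was at 0.02, Pklr at -0.03, the lactate carrier Slc16a1 at 0.03, Pgm2 at -0.01 and Adpgk at -0.08. None of these passed over all genes.

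Branches and regulators of the path were set beside it, all listed with earlier results of these data known. Of 15 kept genes of the pentose phosphate and serine branches 13 had a positive difference (median 0.17), as did 61.3% of all genes. At an unadjusted p under 0.05 were 0 of the 15, where 6.79% of all genes were higher and 4.25% lower. Phgdh, which opens serine synthesis, was at 0.54 (SE 0.249), the transketolase Tkt at 0.27 and Psph at 0.22. Pyruvate entry to mitochondria, 12 kept genes, had a median of 0.03 and 0 genes at that level, with Dld at -0.35, the pyruvate dehydrogenase subunit Pdha1 at -0.16 and Pdp2 at 0.22. That median lies beside 0.06 for all genes.

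Among 22 HIF pathway and hypoxia genes 4 were higher and 0 lower at an unadjusted p under 0.05, against 6.79% and 4.25% of all genes, with a median of 0.07. P4ha1, a collagen prolyl hydroxylase induced by hypoxia, averaged 7.13 ± 0.129 in heterozygous and 6.72 ± 0.246 in wild type arrays (SD, n = 5 each), did not overlap between genotypes and was at 0.42 (SE 0.127, adjusted p = 0.349). The carbonic anhydrase gene Car9 was at 0.44 (SE 0.149, adjusted p = 0.357) and P4ha2 at 0.33. P4ha2 was dim, with means of 4.87 in heterozygous and 4.54 in wild type arrays beside the cut of 4.52 for dim rows. Of the 22 genes, 16 had a positive and 6 a negative difference, against 61.3% and 38.7% of all genes. Among the negative ones were Adm at -0.43 and Kdm3a at -0.32. Of 10 genes around MYC and MondoA 0 were at an unadjusted p under 0.05. Their smallest p belonged to Txnip, an inhibitor of glucose uptake, at -0.38 (SE 0.219, adjusted p = 0.520), ahead of Mga at -0.48 and Mlx at 0.21. In the PI3K, AKT and mTORC1 axis 1 of 16 genes was higher at that level, near the 6.79% of all genes. It was the kinase gene Mtor, at 9.41 ± 0.316 in heterozygous and 8.63 ± 0.404 in wild type arrays (SD, n = 5 each), with a difference of 0.78 (SE 0.208, limma adjusted p = 0.345). Pik3ca was at -0.48 and Rptor at 0.25. All 5 B lineage regulators known from human B cell leukaemia to limit glucose supply had negative differences (median -0.40), as did 38.7% of all genes, with Nr3c1 at -0.35, Cnr2 at -0.48 and Ikzf1 at -0.33, and 0 were at an unadjusted p under 0.05. The other two, Pax5 (-0.47) and Ebf1 (-0.40), are also in the B lineage marker list.

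**Figure D4:**
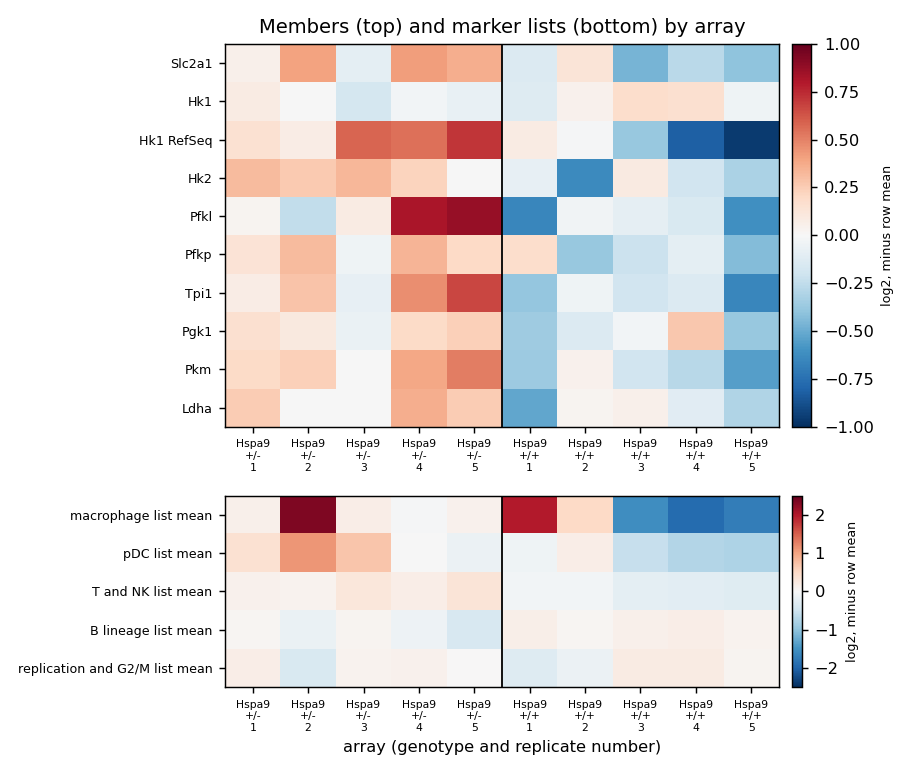
Members (upper block) and means of marker lists (lower block) by array, as log2 value minus the row mean, on separate colour scales; heterozygous arrays 1 to 5 are left of the line and wild type arrays 1 to 5 right of it. Tpi1 and Pkm are highest in heterozygous 5 and 4, while the macrophage mean is highest in heterozygous 2 (10.79) and wild type 1 (10.45).

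Several cell type marker lists moved along with genotype or with the members. With the macrophage mean as a covariate, 8 of the 9 members were higher at an unadjusted p under 0.05 and their median difference was 0.43. For the fits with a covariate the share of all genes at that level was not counted. The counts of members in those fits thus have no background beside them. Leaving out wild type 1 and heterozygous 2 gave 7 of 9 and a median of 0.44, where 10% of all genes were higher. In the arrays left, the macrophage mean was still uneven, at 8.43 to 8.63 in heterozygous and 6.54 to 8.97 in wild type arrays. Lyz2 was at 1.45 and Tyrobp at 1.59 among macrophage genes, and no list named here held a gene past the test over all genes. Markers of plasmacytoid dendritic cells, which carry B220 too, were higher for 5 of 6 kept genes at an unadjusted p under 0.05, against 6.79% of all genes, with Siglech at 1.63 and Bst2 at 0.72. Their mean was 7.29 to 8.54 in heterozygous and 6.67 to 7.60 in wild type arrays, and with it as a covariate 5 of the 9 members were higher at that level, Slc2a1 (0.35) and Pfkp (0.37) no longer among them, with a median difference of 0.47. T cell and NK cell markers were higher for 4 of 7 kept genes, against the same 6.79%, with Nkg7 at 0.68 and Thy1 at 0.71. Their mean had r = 0.76 with the mean of the members over the 10 arrays and 0.08 within genotypes, as a description.

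B lineage markers had a mean of 10.18 to 10.66 in heterozygous and 10.64 to 10.76 in wild type arrays, and a mean difference of -0.24. At an unadjusted p under 0.05, 3 of 13 kept genes were lower (Rag1 at -0.79, Rag2 at -0.59 and Cd24a at -0.19) and 1 was higher (Igll1 at 0.28), against 4.25% and 6.79% of all genes. Cd24a and Igll1 were named after their values were seen. The mean of the members and that of the B lineage markers had r = -0.77 over the 10 arrays and -0.51 within genotypes, given as a description, and heterozygous 5 was lowest in the B lineage mean and among the 2 highest in the members. DNA replication and G2/M genes, a sign of cycling, had a mean of 9.85 ± 0.215 in heterozygous and 9.86 ± 0.234 in wild type arrays (SD, n = 5 each), with 0 of 21 at an unadjusted p under 0.05. Of the 21, 13 had a positive and 8 a negative difference, against 61.3% and 38.7% of all genes. Smallest in p were Tyms at 0.30, Aurka at 0.26 and Cdk1 at 0.22. Largest in size were Mki67 at -0.66 (SE 0.466) and Bub1 at -0.46 (SE 0.334). With the mean of the replication and G2/M genes as a covariate 7 of 9 members were higher at an unadjusted p under 0.05, with a median difference of 0.45. The share of all genes was not counted there either. Neutrophil (Mmp9 0.24, Ctsg 0.38), erythroid (Slc4a1 0.19, Car1 0.22) and megakaryocyte markers (Gp9 0.11, Pf4 1.05) had 0 kept genes at that level. Each of the 13 kept neutrophil genes had a positive difference, as did 61.3% of all genes. Their median was 0.38, against 0.06 for all genes. What the cell makeup of the sorted samples adds to the members' differences was not tested beyond these values.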

How the data were processed

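The authors deposited gene-level RMA values on the log2 scale from Mouse Gene 1.0 ST arrays, using the Expression Console software of Affymetrix, per the labels. Its version and annotation build are unknown here. RMA brings arrays to a shared distribution, so a shift of most genes one way would be largely removed. The table holds 35556 probe sets on 10 arrays, with array medians of 5.38 to 5.49, and the number of arrays limits precision.

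Probe sets were named by the platform annotation (21789 with 1 symbol, 1621 with several, 12146 not listed), with symbols updated by Entrez identifier. Per symbol the probe set of highest mean was kept, and rows at or below the 25th percentile of means (4.52) were dropped, leaving 14953. The test was limma (version 3.58.1, under R 4.3.3) on heterozygous minus wild type. Its p-values were adjusted by Benjamini-Hochberg across the whole table, and the threshold was 0.05. Standard errors are limma's, and its p-values set a difference against the spread among arrays of the same genotype, moderated across genes. Each array came from a separate mouse, so that spread also holds differences in culture, sort and array. Single values were compared by two-sided exact permutation over 252 splits (smallest p 0.0079). The fit was checked on simulated data.

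Members, lists and settings were chosen with earlier results of these data known. Named were all members, Hspa9, every kept gene of the further glycolysis list, the 3 genes of smallest p of each other list (2 for cell type lists) and the 5 genes most like the members. Cd79a, Ptprc, Mki67, Bub1, Adm, Kdm3a, Cd3e, Il2rb and Cd4 were chosen after their values were seen. Alternatives were filters, probe set rules, normalizations, variance models, covariates, the replicate number as a block, and arrays left out.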

Additional observations from a re-analysis of the deposited data

Results flagged for a closer look

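One value stood far from the others of its group. Ldha minus Ldhb in heterozygous 2 was 4.06 log2 units, below the nearest heterozygous array at 5.51, a gap of 0.721 of the range against Dixon's critical value of 0.71 for 5 arrays. That array also had the highest mean of macrophage markers, 10.79, and the part of such cells in the value was not tested. Of the 32 sets of 5 arrays checked this was 1, and chance gives about 1 in 20.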

How the results depend on the processing

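The mean difference of the members was positive in all 25 alternatives, from 0.32 with array weights to 0.49 with the RefSeq probe set of Hk1, and from 0.34 to 0.44 without 1 array. The count of members higher at an unadjusted p under 0.05 was 5 to 8, with 5 without wild type 1, wild type 5 or heterozygous 4 and with plasmacytoid dendritic cell markers as covariate, a setting added, like the RefSeq probe set of Hk1, after the data were seen. The share of all genes at that unadjusted level was counted only in the main fit and without wild type 1 and heterozygous 2. At the adjusted threshold 0 members passed over all genes in any alternative. Combining 2 changes, the RefSeq probe set of Hk1 passed with array weights. Genes past the threshold over all genes numbered 137 with array weights, 42 with replication and G2/M genes as covariate, 26 without wild type 1 and heterozygous 2, and 0 to 22 without 1 array (22 without wild type 1, 3 without heterozygous 2). Hspa9 passed with array weights (-0.79, adjusted p = 0.0381) and with replication and G2/M genes as covariate (-0.72, adjusted p = 0.0324), and ran from -0.84 to -0.62 without 1 array. It was -0.53 with macrophage markers and -0.47 with plasmacytoid dendritic cell markers as covariate. Hk2 minus Hk1 turned to -0.38 with the RefSeq probe set of Hk1, and was at 0.08 with the mean of the probe sets of a symbol. Its adjusted p was 0.0635 without wild type 2 or without any 1 heterozygous array, and 0.114 without wild type 1 and heterozygous 2. In that last setting the groups did not overlap in Hk2 minus Hk1. Its exact p there was the smallest that the fewer splits allow, so 0.114 does not show a weaker difference. The cause of the other shifts was not tested.

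Arrays with the same replicate number did not deviate together (r from -0.53 to 0.53, 0 of 5 best with their own number), so the numbers were not taken as pairs. With the replicate block the mean difference was 0.39, 6 members were higher at an unadjusted p under 0.05, and 0 genes passed.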
